A study of Mus musculus with 30 samples.

Results

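The genes of glycolysis and the pentose phosphate pathway were followed in mouse embryonic stem cells (ESC) and in embryoid bodies (EB), the aggregates that ESC form when they begin to differentiate. The set held 32 genes listed by symbol: glucose and lactate transporters, glycolytic enzymes, lactate dehydrogenases, kinases that set the flux, and pentose phosphate enzymes. A gene was measured by an array probe set annotated to its symbol alone, and where it had several, by the one with the highest mean log2 value over all 30 arrays. This gave 29 of the 32 genes, among 13235 genes tested. Gpi1, Eno1 and G6pdx were not analysed here because no probe set was annotated to them alone. All 29 passed the filter on low values, and 17 had several probe sets.

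EB were R1 ESC grown for 5 days without LIF, the cytokine that keeps ESC undifferentiated, and ESC were the same R1 line kept with LIF. Both states received cycloheximide, which stalls ribosomes on mRNA, at 150 ug/ml for 15 min before lysis. Lysate was spun through a sucrose gradient, on which an mRNA moves further the more ribosomes it carries, and 12 fractions were joined into 4 pools. Pool RNA and RNA of whole lysate, called total RNA here, went onto Affymetrix mouse arrays at 2.5 ug per array, for 3 biological replicates per state. The labels do not say which end of the gradient pool 1 came from, so the pools are given by number. R1 is a single cell line, so the replicates are cultures of 1 genotype.

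Glycolysis splits glucose into pyruvate with a small gain of ATP, and lactate dehydrogenase turns pyruvate into lactate, which regenerates the NAD+ that the pathway uses. The pentose phosphate pathway branches off at glucose 6-phosphate and yields NADPH and ribose phosphate for nucleotides. Mouse ESC are known for a high use of both, and many of the enzymes exist as isozymes whose proportions differ between tissues.

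Values are given on 2 log2 scales. On the deposited scale the arrays differ in overall brightness, with a mean linear signal of 385, 308 and 365 in total RNA of EB, against 161, 154 and 160 in total RNA of ESC. On the scale relative to all genes, quantile normalization gave all arrays of a comparison the same distribution, so that a value there states a gene's place among the others. Differences were tested with limma across all genes, and a gene is called where its Benjamini-Hochberg adjusted p was under 0.05. Mean signal ranged from 74.8 to 586 over the 30 arrays, the lowest correlation between 2 arrays of a group was 0.909, in EB pool 2, and replicate 3 of that group had hybridisation controls at 13.9, the highest of the range from 9.60 to 13.9 (log2). Without replicate 3 of both states, the pool ratio comparison relative to all genes, described below, called 1 member in place of 3. With any 1 culture left out it called 1 or 2, so the loss was not particular to replicate 3.

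Markers of pluripotent cells were measured in both states, and their summed linear signal relative to all genes ran from 26636 to 27070 in EB against 28603 to 29354 in ESC. Among these 7 genes, Nanog was called higher in EB (0.55 ± 0.11) and Klf4 lower (-1.68 ± 0.11, log2 relative to all genes, SE), and Pou5f1 differed by -0.27 ± 0.11 without a call. Of 6 measured primitive endoderm markers, 4 were higher in EB, Dab2 by 1.57 ± 0.16 among them, and the summed linear signal of these 6 ran from 996 to 1079 in EB against 688 to 790 in ESC. Of 6 feeder fibroblast markers 2 were measured, with a summed signal of 79.8 to 81.6 in EB against 92.9 to 200 in ESC. Sums of 4 primed epiblast markers, 2721 to 3121 in EB against 1907 to 2332 in ESC, and of 4 streak and mesoderm markers, 193 to 260 in EB against 130 to 174 in ESC, were higher in EB without overlap, although 1 primed epiblast gene was called higher and 2 lower. Sums of 4 neural markers were lower, at 270 to 328 in EB against 341 to 418 in ESC, with 2 genes called lower. The erythroid and the muscle and heart sums overlapped. The log2 difference between the 3' and 5' Gapdh control probe sets, which grows as RNA is broken or incompletely copied, averaged 0.547 ± 0.189 in total RNA of EB and 1.27 ± 0.185 in total RNA of ESC (SD, n = 3 each). The part of cell types and of RNA quality in the differences below was not tested. In bulk RNA, more cells of a type and more RNA per cell cannot be told apart.

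The promoters of the 4 called members with the largest differences in total RNA relative to all genes, in either direction, are printed to show their start regions. These are RefSeq windows on GRCm38.p6 of 250 bases before to 50 bases after a transcript start, read 5' to 3' along the gene. Capitals mark ACGTG on either strand, the core of the element bound by hypoxia-inducible factors. It overlaps the E-box CACGTG bound by Myc and related factors. Ldhb lies at chr6:142507908-142508207 on the minus strand, the downstream start of Pkm at chr9:59656977-59657276 on the plus strand, Hk2 at chr6:82774405-82774704 on the minus strand and Pfkl at chr10:78009758-78010057 on the minus strand.
Ldhb: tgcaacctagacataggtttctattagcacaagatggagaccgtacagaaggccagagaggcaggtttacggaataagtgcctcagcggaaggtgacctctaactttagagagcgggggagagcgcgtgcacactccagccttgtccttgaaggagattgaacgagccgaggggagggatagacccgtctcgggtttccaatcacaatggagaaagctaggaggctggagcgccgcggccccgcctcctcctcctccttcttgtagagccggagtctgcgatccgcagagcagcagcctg
Pkm: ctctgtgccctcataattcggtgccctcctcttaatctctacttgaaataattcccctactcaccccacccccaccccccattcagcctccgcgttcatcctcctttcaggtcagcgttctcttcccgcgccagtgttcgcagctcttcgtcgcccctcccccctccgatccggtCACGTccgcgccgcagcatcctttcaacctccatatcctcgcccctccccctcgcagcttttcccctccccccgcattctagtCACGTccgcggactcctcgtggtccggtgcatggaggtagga
Hk2: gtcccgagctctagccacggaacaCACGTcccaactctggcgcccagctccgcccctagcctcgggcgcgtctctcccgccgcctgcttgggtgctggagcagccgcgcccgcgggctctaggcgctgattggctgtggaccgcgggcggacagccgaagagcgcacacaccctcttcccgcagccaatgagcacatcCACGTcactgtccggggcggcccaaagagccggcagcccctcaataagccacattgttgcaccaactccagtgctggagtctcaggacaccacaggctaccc
Pfkl: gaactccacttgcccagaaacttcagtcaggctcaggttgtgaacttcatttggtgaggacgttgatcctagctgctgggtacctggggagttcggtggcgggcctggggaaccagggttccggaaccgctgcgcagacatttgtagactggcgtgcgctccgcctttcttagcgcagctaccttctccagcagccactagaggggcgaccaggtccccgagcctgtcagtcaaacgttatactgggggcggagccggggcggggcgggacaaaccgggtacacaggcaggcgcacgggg
The Pkm window held the letters at 2 places, 75 bases before and 9 bases after the start, and the Hk2 window at 2 places, 226 and 52 bases before it. The other Pkm start, at chr9:59656326-59656625, held none, nor did the Ldhb and Pfkl windows. A window was found for 31 of the 32 genes, all but Slc2a3. ACGTG stood in at least 1 window of 15 of these 31 genes (48.4%), against 21.8% of 27025 genes in the table, and CACGTG in 4 of 31 (12.9%), against 8.09%. A gene with more windows has more chances of a match, which these shares do not account for, and the members had 1 to 4 windows each. Relative to all genes, Pkm was higher and Hk2 lower in EB, and both held the letters, while Ldhb and Pfkl were higher and held none. On the deposited scale all 4 were called higher in EB. A match of letters is a description, not a binding site.

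Total RNA was compared first, to ask how the abundance of each mRNA differed between day-5 EB and ESC. On the deposited scale 28 of the 29 members were called higher in EB and 0 lower, also 0 at an unadjusted p under 0.05, but 78.9% of all genes were called higher and 0.317% lower. The members' median difference was 1.40, against 0.96 over all genes (log2). Eno3, the muscle enolase, was the member without a call (0.34 ± 0.25, SE, adjusted p = 0.223). With no offset the medians of members and of all genes were 1.47 and 1.33, and with an offset of 100 they were 1.09 and 0.66. The size of the gap between them thus depended on the offset. Unless the deposited scale is named, the rest of the total RNA account uses the scale relative to all genes.

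Relative to all genes, 8 members were called higher in EB, where 6.51% of all genes were, and 2 lower, where 6.37% were. The members' median difference was 0.39, against -0.01 over all genes. With no offset these medians were 0.40 and -0.01, and with a common median before the offset they were 0.11 and -0.03. The 3 EB values lay above all 3 ESC values for 15 members and below for 4, and 18.2% and 17.9% of all genes did so. The split between directions depended on the scaling: 16 members were higher and 1 lower after median centring, and 5 were higher and 3 lower when arrays were brought to a common median before the offset. Ldhb, Pkm and Hk2 kept their call under all 16 alternative settings, and the number of members called ran from 4 to 17. With any 1 culture left out, 4 or 5 members were called.

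**Figure D1:**
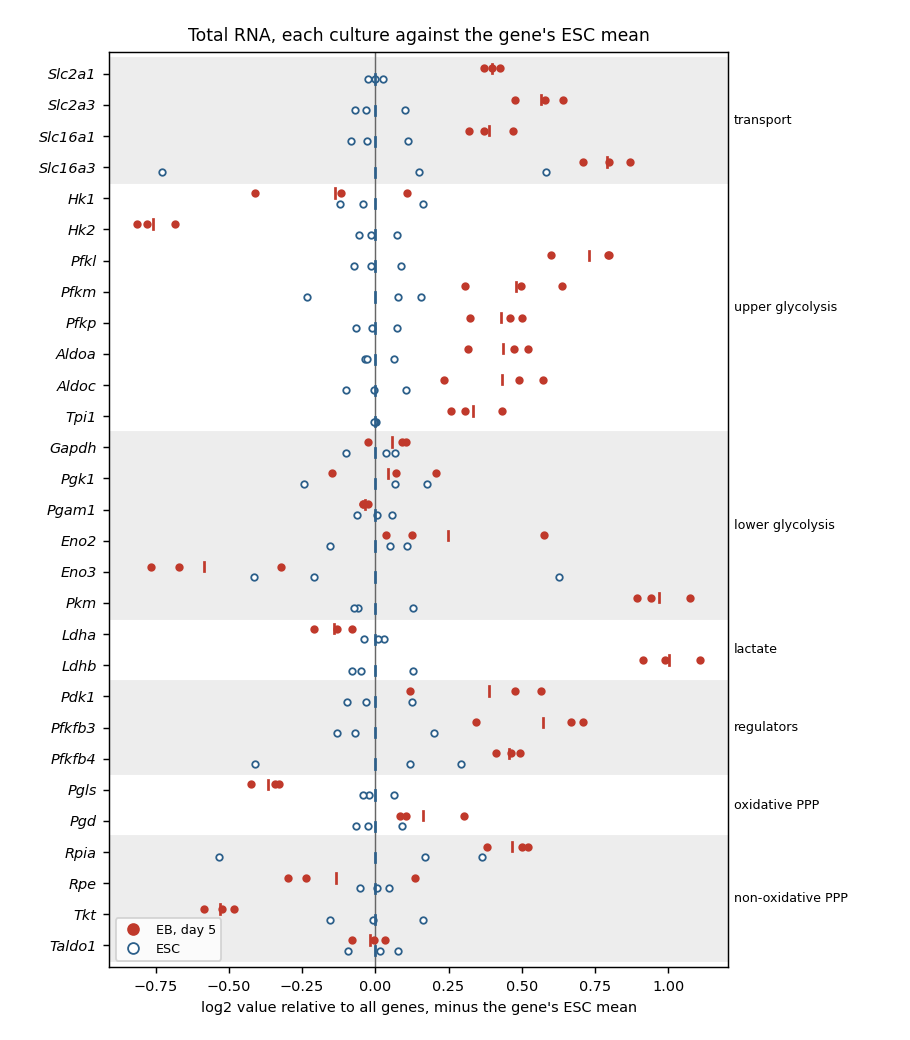
Total RNA of each culture for the 29 measured genes, as log2 value relative to all genes minus that gene's ESC mean (horizontal axis); filled red points are EB, open blue points ESC, ticks are means of 3. EB stand right of ESC for the transporters, most of upper glycolysis, Pkm and Ldhb, and left of them for Hk2, Pgls, Tkt and, by a smaller distance, Ldha.

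Among the transporters, both glucose importers were higher in EB. Slc2a1, the broadly expressed glucose transporter GLUT1, had values of 12.85, 12.79 and 12.82 in EB, against 12.45, 12.40 and 12.42 in ESC. The groups did not overlap and differed by 0.40 ± 0.10 (SE, limma adjusted p = 0.0427). Slc2a3, the high-affinity GLUT3, had 12.76, 12.66 and 12.82 in EB, against 12.15, 12.11 and 12.28 in ESC, a difference of 0.57 ± 0.11 (adjusted p = 0.0214). The groups again stood apart, by more than their own spread. Both calls were lost in some settings: Slc2a1 kept its call in 4 of 16 and Slc2a3 in 9, always with a positive difference. The monocarboxylate transporters Slc16a1 and Slc16a3, which carry lactate and pyruvate, differed by 0.39 ± 0.11 and 0.79 ± 0.31 without a call.

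In upper glycolysis, from glucose to triose phosphate, 3 of 8 genes were higher, 1 was lower and 4 were not called. Hk2, the inducible hexokinase that binds to mitochondria, had values of 10.23, 10.10 and 10.14 in EB, against 10.99, 10.86 and 10.90 in ESC. It fell by 0.76 on the log2 scale (SE 0.11, adjusted p = 0.00764), and the highest EB value lay well below the lowest ESC value. Its deposited values were 10.88, 10.54 and 10.73 in EB, against 10.39, 10.28 and 10.24 in ESC, so on that scale it was higher in EB by 0.40 ± 0.15 (adjusted p = 0.0315), less than the median gene. The constitutive hexokinase Hk1 differed by -0.14 ± 0.16, within its spread, while its other, dimmer probe set gave 0.47.

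Phosphofructokinase commits sugar to glycolysis and is built from liver, muscle and platelet subunits. The liver subunit Pfkl had values of 10.51, 10.31 and 10.51 in EB, against 9.69, 9.64 and 9.80 in ESC, a difference of 0.73 ± 0.11 (adjusted p = 0.0109). The platelet subunit Pfkp had 10.95, 10.81 and 10.99 in EB, against 10.42, 10.48 and 10.56 in ESC, a difference of 0.43 ± 0.11 (adjusted p = 0.0462). Neither pair of groups overlapped, and the muscle subunit Pfkm, at 0.48 ± 0.15, did not overlap either but missed the threshold (adjusted p = 0.0781). Aldoa, the main aldolase, had 13.25, 13.09 and 13.30 in EB, against 12.74, 12.84 and 12.75 in ESC, a difference of 0.44 ± 0.11 (adjusted p = 0.0447). Aldoa and Pfkp each kept their call in 3 of 16 settings, and Pfkl in 15, losing it when its probe sets were averaged.

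In lower glycolysis, which yields the ATP, 1 of 6 genes was called. Pkm, pyruvate kinase, had values of 12.32, 12.27 and 12.45 in EB, against 11.32, 11.31 and 11.51 in ESC. It was higher by 0.97 ± 0.12 (adjusted p = 0.00469), with no overlap. The single probe set does not separate the splice forms M1 and M2. Gapdh, Pgk1 and Pgam1 differed by 0.06 ± 0.11, 0.04 ± 0.16 and -0.04 ± 0.10. For Gapdh and Pgk1 the probe set decided the value: the 3', middle and 5' Gapdh control probe sets gave 0.06, 0.48 and 0.77, and the 3 Pgk1 probe sets 0.04, 0.40 and 0.87.

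Of the lactate dehydrogenase subunits, one was called and one was not. Ldhb, the heart-type subunit, had values of 11.35, 11.54 and 11.42 in EB, against 10.56, 10.35 and 10.38 in ESC. It was higher by 1.00 ± 0.12 (adjusted p = 0.00433), the largest difference among the members, and its 4 probe sets gave 0.99 to 1.28. Ldha, the muscle-type subunit, differed by -0.14 ± 0.10 with no call (adjusted p = 0.406), although its EB values lay below its ESC values. Of the regulators, Pfkfb3, which makes the phosphofructokinase activator fructose 2,6-bisphosphate, had 7.17, 7.21 and 6.85 in EB, against 6.43, 6.37 and 6.70 in ESC. The groups stood apart by 0.57 ± 0.15, just past the threshold (adjusted p = 0.0496). The call was kept in 5 of 16 settings and lost with the replicate block and with any 1 culture left out. Pdk1, which shuts pyruvate out of the mitochondrial pyruvate dehydrogenase, and Pfkfb4 differed by 0.39 ± 0.15 and 0.46 ± 0.19 without a call.

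In the pentose phosphate pathway 1 of 6 measured genes was called, lower in EB, and 0 were called higher, also 0 at an unadjusted p under 0.05. Tkt, the transketolase that links the pathway back to glycolysis, had values of 12.32, 12.22 and 12.28 in EB, against 12.80, 12.65 and 12.96 in ESC. It fell by 0.53 on the log2 scale (SE 0.12, adjusted p = 0.0335) without overlap, and kept its call in 5 of 16 settings. Pgls, the lactonase of the oxidative branch, fell short of a call at -0.37 ± 0.10 (adjusted p = 0.0592), with values of 8.95, 8.87 and 8.97 in EB, against 9.28, 9.25 and 9.36 in ESC. Taldo1, the transaldolase, differed by -0.02 ± 0.11. Pgd, Rpia and Rpe lay between -0.13 and 0.47 with SE from 0.12 to 0.23. Rpe was the one at -0.13, and its other probe set kept by the filter gave 0.43.

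**Figure D2:**
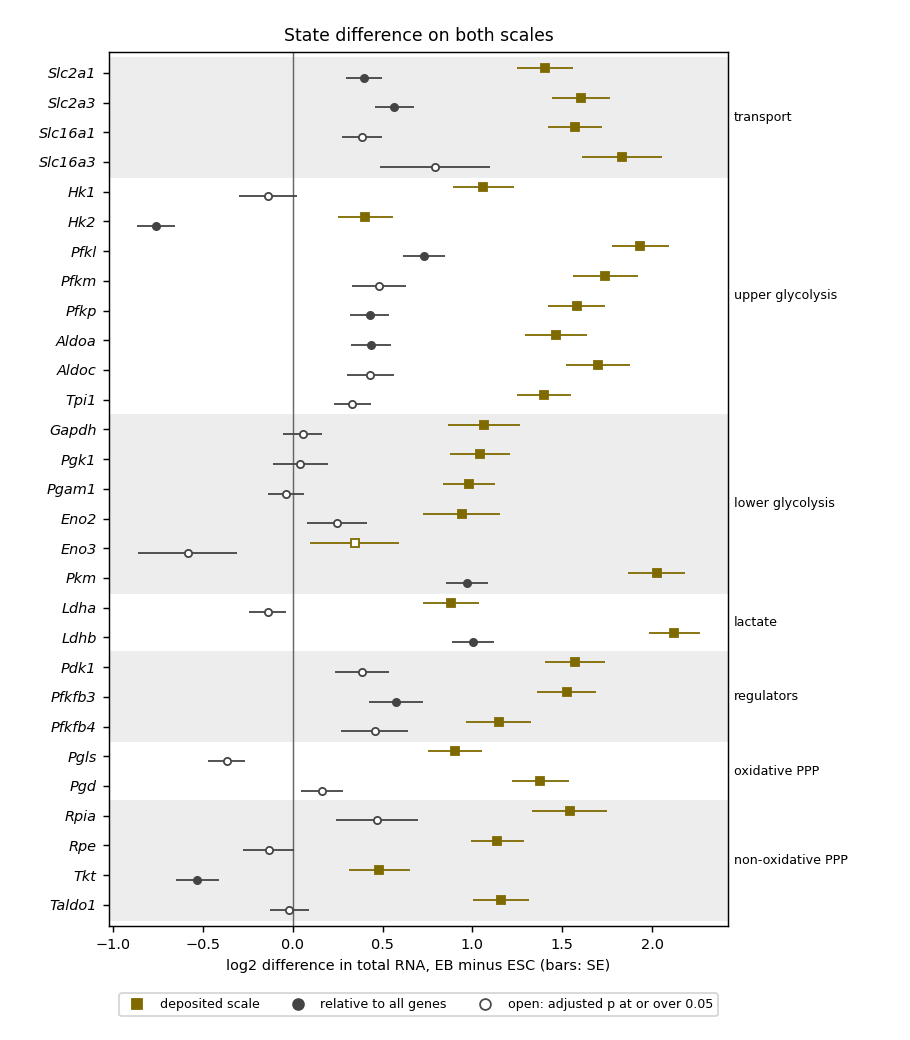
Log2 difference in total RNA, EB minus ESC, for the 29 measured genes on the deposited scale (squares) and relative to all genes (circles); bars are SE and open symbols were not called. The deposited differences run from 0.34 to 2.12 and all lie right of 0, whereas the relative ones run from -0.76 to 1.00.

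Isozyme pairs, 10 in all, were then compared within each total RNA array, where the scaling of the array largely cancels. The level of a probe set cannot be set against another's, so the change of the difference between states is what counts. Ldhb minus Ldha was -1.42, -1.12 and -1.41 in EB, against -2.47, -2.53 and -2.68 in ESC, a shift of 1.24 toward Ldhb. Hk2 minus Hk1 was 2.51, 2.14 and 2.75 in EB, against 3.35, 3.09 and 2.93 in ESC, a shift of -0.66. Neither pair overlapped between states. Pfkl against Pfkp shifted by 0.35, Aldoc against Aldoa by 0.24 and Slc2a3 against Slc2a1 by 0.20, also without overlap, and the other 5 pairs overlapped. Several of these shifts depended on the probe set, that of Pfkl among them. Relative to all genes, the 3 Pfkl probe sets gave 0.73, 0.39 and -0.20, and the 3 Pfkp ones 0.43, 0.42 and 0.35. The 2 Hk1 probe sets gave -0.14 and 0.47, and the 5 Aldoa ones ran from -0.24 to 0.62. The 4 Slc2a3 probe sets gave 0.57, 0.53, 0.86 and 0.29, and the 3 Slc2a1 ones 0.40, 0.48 and 0.50. With 3 cultures against 3, the smallest p an exact two-sided permutation test can give is 0.1. The 5 pairs without overlap reached it (adjusted p = 0.2 over the 10 pairs), so no pair could pass the threshold. Of single genes, 18.2% lay above and 17.9% below without overlap in total RNA relative to all genes. On the deposited scale, which the pairs use, 77.5% lay above and 0.4% below. The share over other pairs of genes was not computed, so the count of 5 is a description. Relative to all genes, Aldoc and Aldoa differed between states by 0.43 and 0.44, so the shift of that pair depended on the scale.

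**Figure D3:**
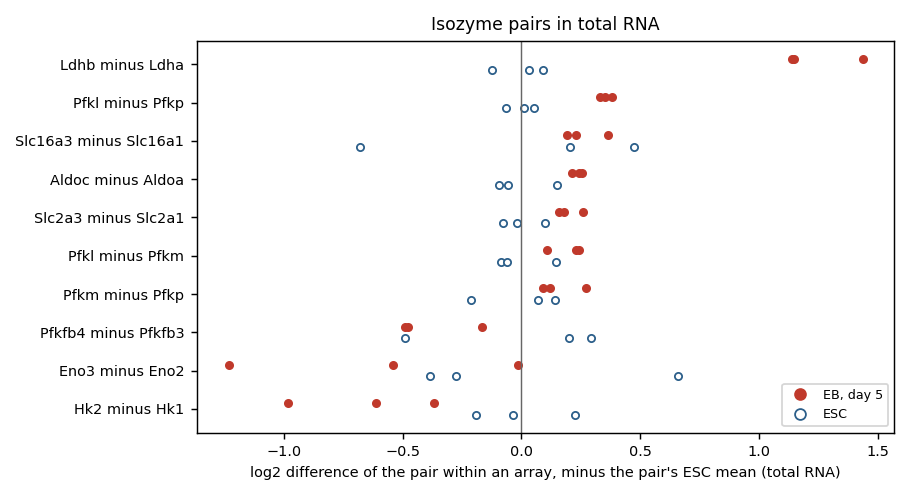
Log2 difference between the 2 members of each isozyme pair within a total RNA array on the deposited scale, minus the pair's ESC mean (horizontal axis), for 3 EB cultures (filled red) and 3 ESC cultures (open blue). The EB points of Ldhb minus Ldha stand furthest right of the ESC points, and those of Hk2 minus Hk1 stand left of them.

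The position of the mRNAs on the gradient was compared next, to ask whether the members' ribosome loading differed between the states. For each culture a pool ratio was taken: log2 values averaged over pools 3 and 4, less the average over pools 1 and 2. Since all pools were hybridised at equal RNA mass, this compares array signals, not amounts of mRNA in the gradient. The pool arrays had a floor, at which 18.2% to 59.0% of probe sets lay. Among the members it held Eno2 on 4 pool arrays and Pfkfb4 on 2.

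Within each state most members lay toward pools 3 and 4 relative to all genes. In EB, 20 members had a ratio called above 0, where 24.7% of all genes did, and 1 below 0, where 17.5% did. In ESC, 15 members were above 0, against 18.2% of all genes, and 0 below, against 14.6%, with 1 member below at an unadjusted p under 0.05. The members' median ratio was 0.57 in EB and 0.37 in ESC, with medians of 0.02 and 0.00 over all genes.

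By role, all 8 upper glycolytic genes were called above 0 in EB and 6 of them in ESC. Pfkl had the highest ratio in both states, 1.74, 2.09 and 1.73 in EB, against 1.54, 2.06 and 1.49 in ESC. Pkm had 1.28 ± 0.09 in EB and 1.23 ± 0.03 in ESC, and Taldo1 0.92 ± 0.12 in EB and 1.18 ± 0.08 in ESC (SD, n = 3 each). The 4 transporters, which encode membrane proteins, ran from -0.30 to 0.01 in EB and from -0.35 to 0.14 in ESC, and 0 of 4 were called in either state (1 below 0 in each at an unadjusted p under 0.05). When arrays were brought to a common median before the offset, Aldoa, Gapdh and Pgk1 in EB turned to -0.02, -0.26 and -0.25, so the position of these bright genes depended on the scaling.

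**Figure D4:**
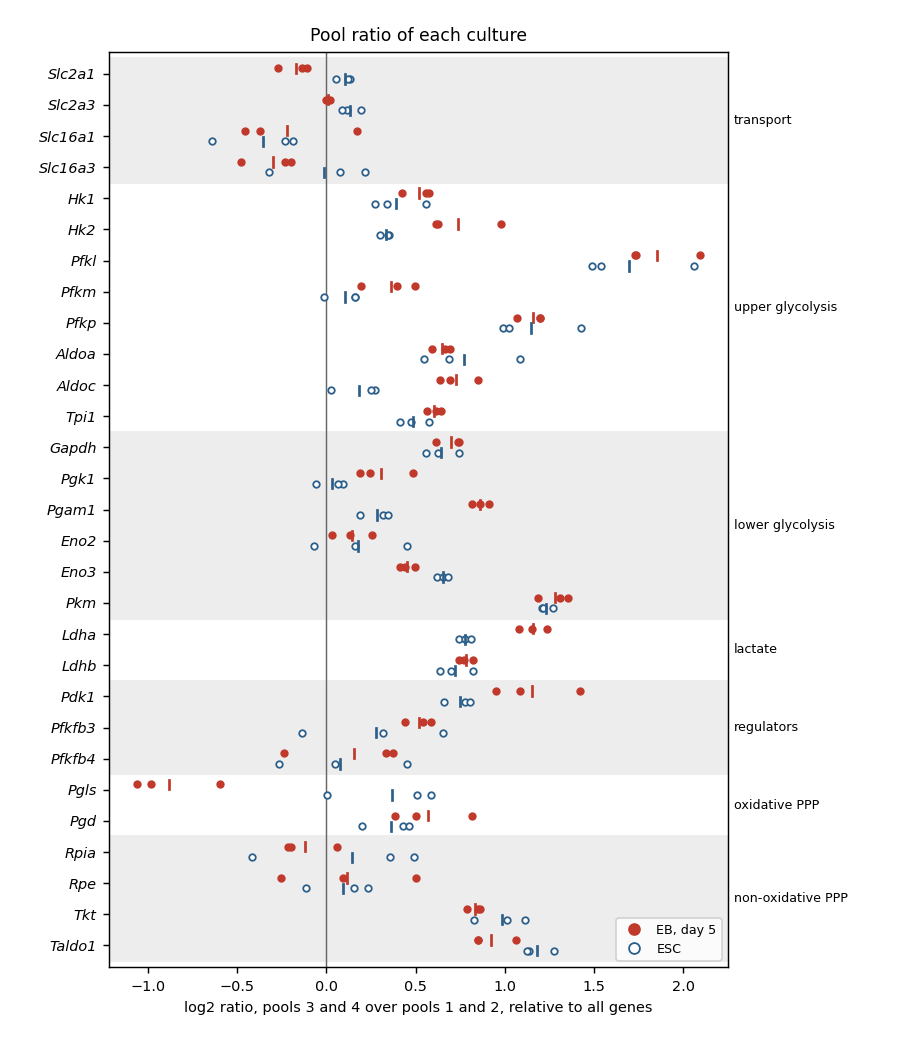
Pool ratio of each culture for the 29 measured genes, as the log2 ratio of pools 3 and 4 over pools 1 and 2 relative to all genes (horizontal axis); filled red points are EB, open blue points ESC, ticks are means of 3. Most enzymes stand right of 0 in both states, the transporters stand near 0, and Pgls stands left of 0 in EB and at or right of 0 in ESC.

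The ratio was then compared between the states. On the deposited scale 27 of 29 were called higher in EB, that is further toward pools 3 and 4, and 0 lower, also 0 at an unadjusted p under 0.05, but so were 64.6% and 0.0831% of all genes. The members' median there was 1.06, against 0.73 over all genes. The called differences ran from 0.53 to 1.68. In that fit limma assigned a single SE, 0.24, to all genes, so the spread of each gene did not enter its p. With no offset the medians of members and of all genes were 1.09 and 1.06, and with an offset of 100 they were 1.02 and 0.48. The gap between members and all genes on this scale thus depended on the offset. When arrays were scaled on the hybridisation controls instead, 0 members were called and 0 genes in all, with 6 members higher and 1 lower at an unadjusted p under 0.05. Relative to all genes 2 members were called higher, where 4.25% of all genes were, and 1 lower, where 5.21% were. After median centring, 9 were higher and 1 lower.

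Relative to all genes Pgls had the largest difference among the members. Its ratio was -1.06, -0.60 and -0.98 in EB, against 0.59, 0.51 and 0.00 in ESC, a difference of -1.24 ± 0.19 (SE, limma adjusted p = 0.00497). Relative to all genes, the mRNA thus lay toward pools 1 and 2 in every EB culture and toward pools 3 and 4, or at 0, in the ESC cultures. On the deposited scale the ratios overlapped, at -0.15, 0.49 and 0.01 in EB, against 0.14, 0.53 and -0.19 in ESC, and differed by -0.04 ± 0.24 with no call (adjusted p = 0.884), where the median gene differed by 0.73. Its level in pool 1 was 9.68, 9.23 and 9.57 in EB, against 8.49, 8.24 and 8.44 in ESC, and in pool 4 8.13, 8.19 and 8.20 in EB, against 9.33, 9.19 and 8.69 in ESC. In pools 2 and 3 the means were 9.60 and 9.16 in EB, against 9.51 and 9.56 in ESC. Fitted by pool, Pgls was higher in EB in pool 1 by 1.05 ± 0.14 (adjusted p = 0.00862) and lower in pool 4, with a difference of -0.86 ± 0.15 (adjusted p = 0.00386). The call relative to all genes held in 18 of 20 alternative settings, with differences from -2.0 to -0.71. It was lost with no offset and with each gene's own variance. One probe set measured Pgls, so no second one could be compared.

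Pgam1, the phosphoglycerate mutase of lower glycolysis, had ratios of 0.86, 0.91 and 0.82 in EB, against 0.32, 0.19 and 0.35 in ESC. It lay further toward pools 3 and 4 in EB by 0.58 ± 0.15 (adjusted p = 0.0307), with no overlap, while its total RNA differed by -0.04 ± 0.10. Aldoc, the brain-type aldolase, had ratios of 0.64, 0.85 and 0.69 in EB, against 0.03, 0.27 and 0.25 in ESC, a difference of 0.54 ± 0.15 (adjusted p = 0.0469). Its groups did not overlap either. Pgam1 kept its call in 9 and Aldoc in 7 of 20 settings, with differences from 0.53 to 1.02 and from 0.46 to 0.99. Hk2, Pdk1 and Ldha also had EB ratios above all their ESC ratios, by 0.41 ± 0.16, 0.40 ± 0.17 and 0.38 ± 0.15, but were not called (adjusted p = 0.128, 0.146 and 0.119). In all, 7 members had EB ratios above and 5 below all ESC ratios without overlap, as had 15.8% and 14.8% of all genes.

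**Figure D5:**
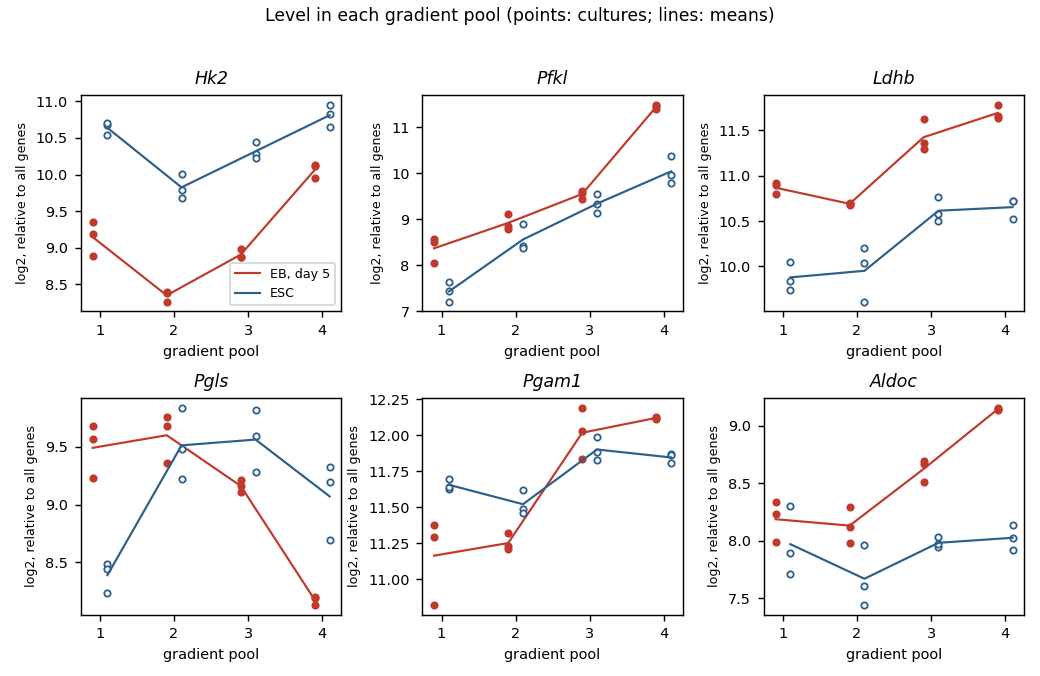
Log2 level relative to all genes in gradient pools 1 to 4 for Hk2, Pfkl, Ldhb, Pgls, Pgam1 and Aldoc, with filled red points for EB cultures, open blue points for ESC cultures and lines for the means of 3; vertical axes differ between panels. Pgls lies higher in EB in pool 1 and lower in pool 4, and Hk2 lies lower in EB in every pool.

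Each pool was also compared between the states on its own, relative to all genes, to see which pools carried a difference. In pool 1, 9 members were called higher in EB and 1 lower, against 5.57% and 7.14% of all genes. In pool 2, 0 were higher, with 5 at an unadjusted p under 0.05, and 1 lower, against 3.01% and 4.34%. In pool 3, 6 were higher and 5 lower, against 10.1% and 12.5%, and in pool 4, 13 were higher and 5 lower, against 13.7% and 16.3%. These splits moved with the scaling: in pool 4, 17 were higher and 0 lower after median centring (0 lower also at an unadjusted p under 0.05), and 6 were higher and 7 lower with a common median before the offset, which moved the median of all genes to -0.17. In pool 1 the corresponding splits were 1 and 1, and 5 and 5, and in pool 3 they were 10 and 2, and 6 and 9.

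Relative to all genes, Hk2 was lower in EB in each pool, with differences of -1.53 ± 0.13, -1.60 ± 0.19, -1.40 ± 0.12 and -0.65 ± 0.10 in pools 1 to 4 (adjusted p = 0.00379, 0.00286, 0.000131 and 0.00244). In pool 4 its level was 10.13, 9.95 and 10.11 in EB, against 10.65, 10.82 and 10.96 in ESC, and in pool 1 8.89, 9.19 and 9.36 in EB, against 10.54, 10.67 and 10.70 in ESC. The difference was nearest to 0 in pool 4, and pools were not tested against each other. Its call held in all 16 settings in pools 1, 2 and 3 and in 15 in pool 4. Fits by pool were not run on the deposited scale. On that scale the means of Hk2 in pools 1 to 4 were 8.04, 8.89, 10.0 and 10.53 in EB. In ESC they were 9.71, 10.20, 10.09 and 9.89, so in pool 4 Hk2 stood higher in EB.

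Ldhb was higher in EB in pools 1, 3 and 4 by 1.06 ± 0.10, 0.77 ± 0.14 and 0.95 ± 0.09, close to its difference of 1.00 in total RNA. It was not called in pool 2 (0.81 ± 0.21, adjusted p = 0.0509). Pfkl differed most in pool 4, where it had 11.45, 11.39 and 11.49 in EB, against 9.80, 10.36 and 9.95 in ESC, and a fitted difference of 1.26 ± 0.13 (adjusted p = 0.000405). Pfkm, Aldoc and Pfkfb3 also differed by more than 1 in pool 4, by 1.11 ± 0.09, 1.08 ± 0.09 and 1.03 ± 0.10, and all 3 calls held in 16 of 16 settings. Of the 4 transporters, 3 were called lower there. Slc16a1 differed by -0.73 ± 0.10 (adjusted p = 0.0011) and kept its call in 15 of 16 settings. Slc2a1 and Slc2a3, higher in total RNA, differed by -0.32 ± 0.10 and -0.31 ± 0.10 and kept their calls in 6 and 5 settings, and Slc2a3 turned to 0.20 when its probe sets were averaged. The deposited pool 4 means of Slc16a1, Slc2a1 and Slc2a3 were higher in EB, at 9.69, 12.19 and 12.23, against 9.07, 11.32 and 11.34 in ESC.

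Genes around the pathways, from lists chosen beside the members, showed the following in total RNA relative to all genes, where 6.51% of all genes were called higher and 6.37% lower. Of 16 other glycolytic and gluconeogenic enzymes, 4 were higher in EB and 2 lower, with G6pc3, a ubiquitous glucose 6-phosphatase, at 0.87 ± 0.17, Bpgm, which makes 2,3-bisphosphoglycerate, at -0.81 ± 0.13, and the testis-type Ldhc at 0.80 ± 0.15. Of 8 further transporters and bisphosphatase-kinases, 1 was higher, Bsg, the chaperone that brings Slc16a1 and Slc16a3 to the membrane, at 0.62 ± 0.14. Of 12 genes for pyruvate entry into mitochondria, 2 were higher and 1 lower: the pyruvate carrier subunit Mpc1 at 0.74 ± 0.18, the pyruvate dehydrogenase kinase Pdk4 at 0.65 ± 0.12 and the dehydrogenase subunit Dlat at -0.50 ± 0.10. Of 6 other pentose phosphate genes, the transketolase-like Tktl1 was called (0.82 ± 0.19). Of 16 TCA cycle genes 3 were lower, Idh3a at -0.65 ± 0.10, Idh3b at -0.57 ± 0.10 and Suclg2 at -0.41 ± 0.10, and 0 were higher, also 0 at an unadjusted p under 0.05. The lists' medians lay between -0.07 and 0.09, against -0.01 over all genes. In lists of this size counts of 1 or 2 are given as values only.

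Among 13 known regulators of glycolytic genes, Myc and Lin28a were lower in total RNA of EB, at -1.20 ± 0.19 and -0.81 ± 0.11, and the oxygen-sensing hydroxylase Egln1 was higher by 0.46 ± 0.11. In the pool ratio, Hif1a, its partner Arnt, and Mycn lay further toward pools 3 and 4 in EB, by 0.91 ± 0.20, 0.64 ± 0.15 and 0.79 ± 0.16 (adjusted p = 0.0173, 0.0251 and 0.0111). The mean ratio of Hif1a was 0.47 in EB and -0.44 in ESC, and that of Mycn 1.14 in EB and 0.36 in ESC. That made 3 of 13 higher and 0 lower by a limma call, with 1 lower at an unadjusted p under 0.05, against 4.25% and 5.21% of all genes. With no offset this fit called 0 of all genes, so these 3 calls were lost too. With each gene's own variance it called 14 genes higher and 16 lower in all. Single genes of the lists were not followed through the alternative settings. In total RNA 1 of 13 was higher and 2 lower, against 6.51% and 6.37% of all genes.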

How the data were processed

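Transcript signals of 30 arrays were analysed, 3 cultures for each of 10 groups. The deposited values are log2 signals of 45101 probe sets, and per the submitters' processing notes the authors used MAS5 and affy, with versions, roles and settings not given in the sources used here. From the values, 24 Bacillus spike-in control probe sets averaged 9.43 to 9.78 (log2) on every array. Gene names came from the platform annotation (34958 probe sets with 1 symbol, 932 with several, 9211 with none). Log2 was retaken after an offset of 32 on the linear values. A filter removed the dimmest 40% of probe sets by mean, leaving 27060 and 13235 genes. Fits used limma 3.58.1 in R 4.3.3 (lmFit, eBayes, two-sided) over all genes, with quantile normalization over the arrays of a fit for values relative to all genes. The levels by pool printed per culture come from one normalization over the 24 pool arrays, and the fits by pool from the 6 arrays of that pool. The number of arrays limits the precision.

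Same-numbered cultures deviated together, with every correlation over 0.1, in pool 2 (0.143, 0.105 and 0.176). Elsewhere at most 1 of 3 was over 0.1: replicate 1 reached 0.31 in pool 4 and 0.19 in pool 3, total RNA had 0.01, 0.02 and 0.04, and the pool ratio 0.073, 0.097 and 0.024. The labels do not tie numbers across states. In the values, pool arrays of the same number shared a floor across states, as at 2.93 (log2) in replicate 2 of ESC pool 1 and EB pool 1. The main fits did not pair them. No 2 arrays held identical values. Alternatives covered the offset, filter, probe set rule, variance model, scaling, ratio, replicate block and each culture left out. Members, lists and tests were chosen with earlier results of these data known. All members could be named, with values per culture for those called in total RNA or in the pool ratio between states, both relative to all genes, and for a few others chosen after their values were seen. The rule also took in the deposited pool ratio, whose called members are given by range. Other genes were named only from the lists, at most 3 called per list.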

Additional observations from a re-analysis of the deposited data

Results flagged for a closer look

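For 3 members the pool ratio differed between the states by the test of the difference itself. Of the members 2 were called higher and 1 lower, where 4.25% and 5.21% of all genes were. All 3 calls were lost with no offset and with each gene's own variance. The EB minus ESC difference relative to all genes was -1.24 for Pgls, 0.58 for Pgam1 and 0.54 for Aldoc (log2). Beside them, the 3' minus 5' log2 difference of the Gapdh control probe sets was lower in EB in each pool: 0.967 ± 0.448 in EB and 2.12 ± 0.118 in ESC in pool 1, and -0.127 ± 0.0404 in EB and 1.30 ± 0.620 in ESC in pool 4 (SD, n = 3 each). Its part in these ratios was not tested.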

How the results depend on the processing

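Counts here are members called of 29. In total RNA on the deposited scale, 28 were called and 12 under hybridisation control scaling, which turned Hk2 to -0.41 and Tkt to -0.35 (log2). In total RNA relative to all genes, 10 were called, 6 with an offset of 16, 16 with an offset of 100, 5 with no offset, 5 with no filter, 5 with the lowest 20% dropped, 17 with trend and robust eBayes, 17 after median centring, 4 with the replicate block and 4 to 5 with a culture left out. For the deposited pool ratio between states, 27 were called, 15 for pool 4 minus pool 1 and 0 under hybridisation control scaling (7 at an unadjusted p under 0.05), which turned Aldoa to -0.16 and Eno3 to -0.0081, and pools 2, 3 and 4 minus pool 1 turned Taldo1 to -0.017. Relative to all genes 3 were called, 1 with an offset of 16, 5 with an offset of 100, 0 with no offset (3 at an unadjusted p under 0.05), 10 after median centring, 5 for pool 4 minus pool 1, 0 with each gene's own variance (9 at an unadjusted p under 0.05), and 1 to 2 with a culture left out. Without replicate 3 of both states, a setting chosen after seeing the data, it was 1. Over all genes this fit called 563 higher and 689 lower, 0 and 0 with no offset, and 14 and 16 with each gene's own variance. For the ratio within EB, a common median before the offset turned Aldoa to -0.023, Gapdh to -0.26 and Pgk1 to -0.25, and pools 2, 3 and 4 minus pool 1 turned Hk2 to -0.039 and Slc2a3 to -0.66. Within ESC, median centring left 9 calls of 15 and turned Gapdh to -0.016, and pools 2, 3 and 4 minus pool 1 turned Hk2 to -0.32, Slc2a1 to -0.60 and Slc2a3 to -0.38. In pool 1, 10 were called, 2 after median centring and 5 to 8 with a culture left out (6 without EB replicate 3, 6 without ESC replicate 2, 5 without ESC replicate 3). In pool 2, 1 was called, 7 with an offset of 100, 2 with no filter, 3 with probe sets averaged, 7 with trend and robust eBayes, 3 with a common median, and 1 to 2 with a culture left out. In pool 3, 11 were called, 6 to 10 with a culture left out (7 without EB replicate 2, 6 without EB replicate 3), and averaged probe sets turned Pfkp to 0.18. In pool 4, averaged probe sets turned Slc2a3 to 0.20 and a common median turned Ldha to -0.21. The cause of these changes was not tested, beyond what each setting does by construction. The replicate block moved no other count by over 1.5 times. In pool 2, where numbers paired, it gave the same single call, Hk2. The number of arrays and the floor of the pool arrays limit what could be detected.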

Other observations

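Several members had probe sets that did not move alike. Of 15 members with several probe sets kept by the filter, 9 had the same sign in total RNA for all of them and 10 in the pool ratio, relative to all genes. Signs differed in total RNA for Aldoa, Hk1, Pfkl, Pgd, Rpe and Tkt. The 3 Tkt probe sets gave -0.53, -0.57 and 0.33 in total RNA, EB minus ESC, the third being the dimmest, with a mean of 4.45 over the 30 arrays against 12.2 and 10.2 (log2). For Pfkl the values were 0.73, 0.39 and -0.20, again with the dimmest (mean 4.29) apart. The 3 Pgk1 probe sets also lay differently on the gradient, with ratios of 0.31, 0.85 and 1.56 in EB and 0.03, 0.72 and 1.47 in ESC, so their differences between states, 0.27, 0.13 and 0.09, were closer to each other than the ratios themselves.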
